A study of Homo sapiens with 12 samples.

Results

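The ibrutinib response of JVM2, a cell line grown from a B-cell malignancy and used here as a model of mantle cell lymphoma, was read from 4 of the 12 RNA-seq libraries of the study. The members were chosen by cell line and treatment alone: the 2 JVM2 libraries with 1.5 µM ibrutinib were set against the 2 without it. Each library with ibrutinib was paired with the library that had the same ironomycin treatment. The first pair held the untreated control and ibrutinib alone. The second pair held 250 nM ironomycin alone and 250 nM ironomycin with 1.5 µM ibrutinib. All 4 cultures were treated for 48 h, and each condition gave 1 library. Nothing in the labels says that a condition was grown more than once, so p-values measure only the spread between these libraries, which may be technical. A gene's own spread is the difference between its 2 pairs, and the test drew most of its spread from the other genes, so that a gene with unequal pairs could still pass. JVM2 is 1 line, and its 4 libraries cannot stand for mantle cell lymphoma in general. The other 8 libraries, from JEKO1 and MAVER1, entered only where the JVM2 effect was compared between lines.

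Ibrutinib binds a cysteine of Bruton's tyrosine kinase (BTK) covalently. In B cells, the B-cell receptor signals through LYN and SYK to BTK, and BTK activates phospholipase C gamma 2 (PLCG2). The signal then splits into a calcium branch that activates NFAT, an ERK branch that switches on immediate early genes such as EGR1, and a branch through protein kinase C beta to NF-κB. The receptor is held in check by inhibitory receptors and adaptors that recruit phosphatases such as SHP-1, the product of PTPN6. Ironomycin, the other agent, is a salinomycin derivative that holds iron in lysosomes.

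The 4 libraries held 38120929 to 38438166 counted reads, and mitochondrially encoded protein genes took 1.69 to 1.99% of them. Of the 63677 genes in the table, 14532 had 20 or more reads in at least 2 JVM2 libraries and were tested, and these held 99.9% of the reads. B-cell markers were high in all 4 libraries. CD79A, which encodes a signaling chain of the B-cell receptor, ranged from 397 to 470 CPM (reads scaled to a common effective library size), and CD79B, its partner chain, from 92.7 to 115 CPM. Neither was called with ibrutinib. Among the mantle cell lymphoma markers, CCND1 stood at 302 CPM in the control library and CCND2 at 227 CPM, while SOX11 had 0 reads in every JVM2 library and CD5 had 1 or 2. CCND1 and CCND2 did not pass the test for ibrutinib (edgeR adjusted p = 0.479 and 0.104). The 6 monocyte markers summed to 8.89 to 10.1 CPM, with FCGR3A at 0 reads in all 4 libraries. The 5 T-cell markers found in the table summed to 3.05 CPM in the control, 1.30 with ironomycin, 1.55 with ibrutinib and 0.692 under the combination, and CD3D had 0 reads throughout.

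A gene was called when its adjusted p-value was under 0.05 in edgeR's quasi-likelihood test and both pairs moved the same way. By this rule 1983 of the 14532 genes, or 13.6%, were called with ibrutinib. Of these, 878 were higher (6.04% of genes tested) and 1105 were lower (7.6%). Most changes were small: the median size of a called change was 0.25 on the log2 scale. Only 20 called genes were at least 2-fold higher and 47 at least 2-fold lower.

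The number of calls rested on how the spread was estimated. DESeq2 called 311 genes, all of them among the 1983, with 120 higher and 191 lower. When the spread was taken from all 12 libraries, which brings in the differences between the pairs of JEKO1 and of MAVER1, edgeR called 28 genes, 6 higher and 22 lower, again all among the 1983. Of the members of the gene lists below, CD72, FCRL5, SH2D2A, EGR1, EGR2 and NAB2 were called in this fit and all others were not. Of the called genes, 19 passed in all 3 of these tests. Scaling by library totals in place of TMM factors gave 1195 higher and 869 lower calls, so that 42.1% of calls were lower against 55.7% with TMM. In the fit of all 12 libraries, leaving out the JVM2 control or ibrutinib library left 0 calls, and leaving out the ironomycin or combined library left 1.

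**Figure D1:**
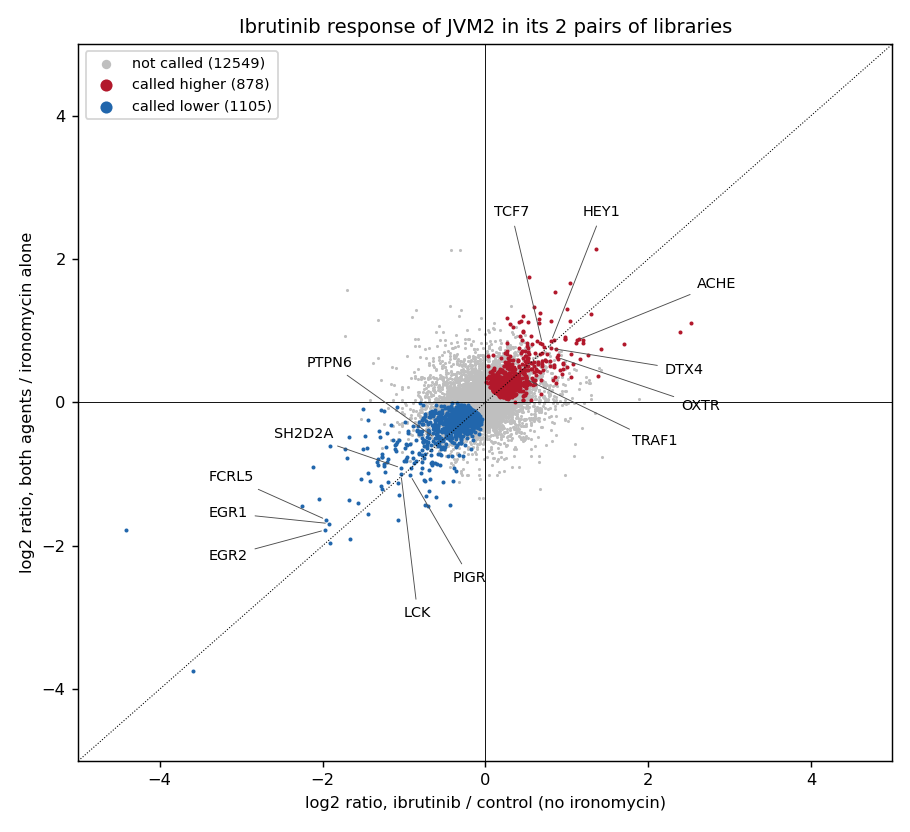
Log2 ratio of each of 14532 genes with ibrutinib against its paired library, without ironomycin (x axis) and with ironomycin in both libraries (y axis), from CPM with a prior count of 2; each point is 1 gene and the dotted line marks equal ratios. Called genes (878 higher in red, 1105 lower in blue) lie in the upper right and lower left, and EGR1, EGR2 and FCRL5 lie near the dotted line at about 2 log2 units below 0.

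Across all tested genes the ratios of the 2 pairs had a Pearson correlation of 0.43, and of 0.63 over the 9524 genes whose mean reached 3 log2 CPM. Genes are not independent replicates, and both pairs came from 1 line at 1 depth. Both pairs were at least 1.5-fold higher for 57 genes, of which 42 were called, and at least 1.5-fold lower for 92 genes, of which 85 were called. The pairs moved by at least 1.5-fold in opposite directions for 26 genes.

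Among named genes whose mean reached 1 log2 CPM, EGR2 had the largest fall in its weaker pair. It encodes a zinc-finger transcription factor induced by receptor signaling. EGR2 stood at 8.40 CPM in the control, 9.38 with ironomycin, 2.10 with ibrutinib and 2.69 under the combination. Both libraries without ibrutinib lay above both libraries with it. The fall was 3.71-fold (log2 change -1.89, SE 0.13, edgeR adjusted p = 4.71e-16) and it was also called with the spread of all 12 libraries (adjusted p = 0.00463). DESeq2 gave EGR2 no adjusted p-value at its default filter.

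EGR1, which encodes a related factor and is a common readout of ERK activity, stood at 13 CPM in the control, 19.9 with ironomycin, 3.39 with ibrutinib and 6.13 under the combination. The groups did not overlap, and ironomycin libraries were the higher of each group. EGR1 fell 3.47-fold (log2 change -1.80, SE 0.10, edgeR adjusted p = 1.83e-19). It passed with DESeq2 (adjusted p = 5.01e-18) and with all 12 libraries (edgeR adjusted p = 0.000859).

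EGR2 and EGR1 fell most among the immediate early genes, and the stretches just before their starts are shown for that reason. Capitals mark CArG boxes, the binding motif of serum response factor, through which ERK signaling reaches these genes. The sequences are RefSeq promoters in build GRCh38.p14, whereas the reads had been placed on GRCh37, and both are written 5′ to 3′ along the gene.
EGR1, chr5:138465329-138465478, plus strand: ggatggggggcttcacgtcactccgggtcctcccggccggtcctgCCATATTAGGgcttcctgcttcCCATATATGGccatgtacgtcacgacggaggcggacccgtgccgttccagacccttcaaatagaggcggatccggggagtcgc
EGR2, chr10:62816367-62816516, minus strand: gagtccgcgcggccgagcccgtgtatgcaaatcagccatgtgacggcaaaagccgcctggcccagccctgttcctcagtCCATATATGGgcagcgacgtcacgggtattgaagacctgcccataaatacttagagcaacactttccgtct
The EGR1 stretch held 2 boxes, beginning 105 and 83 bases before the start, and the EGR2 stretch held 1, beginning 71 bases before it. EGR2 has other starts in the same table, and the 150 bases before those held 0 matches. Over all 35116 RefSeq promoters, 1.16% held a CArG box on either strand within 250 bases before the start. Of the 10 immediate early genes that were called lower, 7 had a promoter in the table and 2 of them, EGR1 and EGR2, held the box. Of the 20 tested members with a promoter, 3 held it: EGR1, EGR2 and SRF. Here and below, a gene counts when any of its promoters holds a motif, whereas shares of all promoters count each entry. Counts of genes and shares of promoters are therefore unlike measures. A match is a run of letters and says nothing of binding in these cells.

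FCRL5, a Fc receptor-like protein of B cells with inhibitory motifs, stood at 18.3 CPM in the control, 7.93 with ironomycin, 4.68 with ibrutinib and 2.51 under the combination. It was lower with ibrutinib in each pair, and the library with both agents was the lowest. FCRL5 fell 3.60-fold (log2 change -1.85, SE 0.12, edgeR adjusted p = 3.61e-18), and by -1.96 without and -1.64 with ironomycin.

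SH2D2A, which encodes an adaptor that binds LCK, stood at 62.5 CPM in the control, 52.4 with ironomycin, 30.5 with ibrutinib and 27.7 under the combination. The 2 libraries with ibrutinib were close to each other and well under the others. SH2D2A fell 1.97-fold (log2 change -0.98, SE 0.06), with an adjusted p of 1.31e-18 in edgeR, 5.01e-18 in DESeq2 and 0.00214 with all 12 libraries. LCK, the Src-family kinase of T cells that some malignant B cells also use, fell 2.05-fold (edgeR adjusted p = 7.42e-07), from 6.53 and 3.60 CPM to 3.15 and 1.77 CPM in the pairs without and with ironomycin. CD3E, the only T-cell marker with enough reads to test, went the same way (log2 change -0.88, edgeR adjusted p = 0.0107). DESeq2 without its default filter did not call CD3E (adjusted p = 0.793). The summed T-cell markers given above were also lower with ibrutinib in each pair. Their part in the LCK result was not tested, and CD3D, CD3G and CD8A were seen with 0 or 1 read per library.

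The 12 falls that were largest in the weaker pair also held CAV1 (caveolin 1), VIL1 (the actin bundler villin), HHLA2 (a B7-family ligand), PLEKHA7 (a protein of cell junctions), PIGR (the receptor for polymeric immunoglobulin), GABRB2 (a GABA receptor subunit) and TLDC2, besides EGR1, EGR2, FCRL5, SH2D2A and LCK. PIGR stood at 54.4 CPM in the control, 43.5 with ironomycin, 28.7 with ibrutinib and 21.5 under the combination. Its groups did not overlap, and it fell 1.96-fold (edgeR adjusted p = 6.56e-18, DESeq2 adjusted p = 3.13e-16). The remaining 6 genes lay under 13 CPM in all 4 libraries, and their falls ranged from 1.82-fold for TLDC2 to 2.39-fold for PLEKHA7. HHLA2 was also called with the spread of all 12 libraries (edgeR adjusted p = 0.0366), whereas CAV1 was not (0.053). VIL1 differed between ironomycin conditions too, since the ironomycin library (2.43 CPM) lay under the ibrutinib library (3.86 CPM).

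The 12 rises chosen in the same way were smaller. ACHE, which encodes acetylcholinesterase, rose 1.98-fold (edgeR adjusted p = 3.24e-08), from 2.92 to 6.44 CPM without ironomycin and from 5.10 to 9.36 CPM with it. HEY1, a transcription factor that Notch signaling switches on, rose 1.79-fold (edgeR adjusted p = 2.56e-05), from 2.38 to 4.21 CPM and from 3.19 to 5.80 CPM. For both genes the DESeq2 default filter gave no adjusted p-value. Without that filter DESeq2 called ACHE (adjusted p = 0.00401) but not HEY1 (0.144).

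DTX4, a Deltex-family ubiquitin ligase, stood at 9.68 CPM in the control, 22.1 with ironomycin, 17.0 with ibrutinib and 37.4 under the combination. Each library with ibrutinib was above its own pair, but the ironomycin library was above the ibrutinib library, so the groups overlapped. DTX4 rose 1.71-fold (log2 change 0.78, SE 0.07), with an adjusted p of 1.33e-11 in edgeR, 2.14e-06 in DESeq2 and 0.00488 with all 12 libraries.

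TCF7, which encodes the Wnt-pathway transcription factor TCF1, stood at 21.2 CPM in the control, 31.2 with ironomycin, 34.5 with ibrutinib and 54.9 under the combination. Every library with ibrutinib lay above every library without it. TCF7 rose 1.70-fold (edgeR adjusted p = 8.39e-14, DESeq2 adjusted p = 4.1e-09, all 12 libraries 0.0187). OXTR, the oxytocin receptor gene, rose 1.68-fold (edgeR adjusted p = 1.03e-12, DESeq2 adjusted p = 1.34e-07, all 12 libraries 0.0351), from 20.8 and 27.3 CPM to 38.2 and 42.3 CPM. The other rises were AQP9 (an aquaglyceroporin), SPRN, PTK7 (a receptor-like pseudokinase), SFN (14-3-3 sigma), IVL (involucrin), ADM5 and KL (klotho), and they ranged from 1.52-fold for KL to 1.74-fold for AQP9. Of these 7, KL was also called by DESeq2 (adjusted p = 0.00115).

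**Figure D2:**
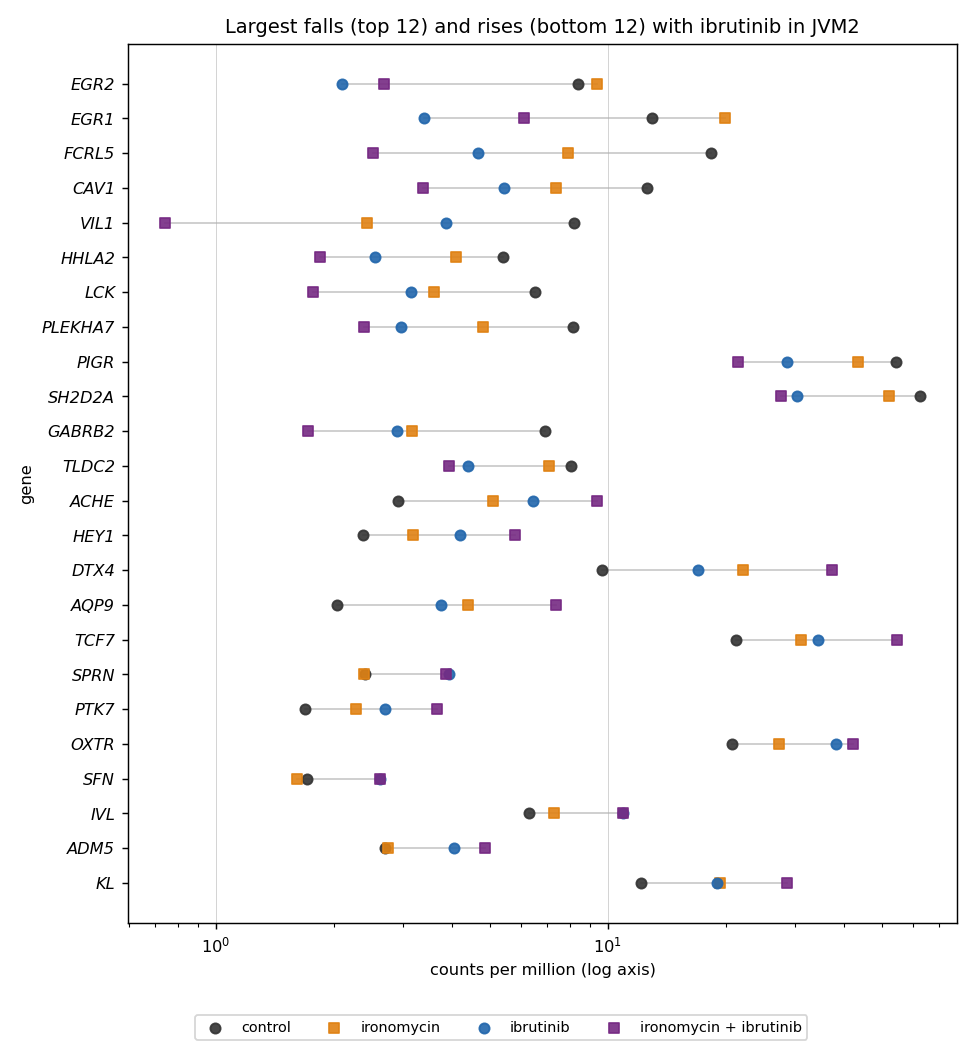
CPM (log axis) of the 12 falls and 12 rises with the largest change in the pair that changed less, 1 row per gene and 1 point per JVM2 library; circles are libraries without ironomycin, squares libraries with it. In the upper 12 rows each ibrutinib point lies left of its own pair, as for EGR1 (3.39 against 13 CPM), and in the lower 12 rows each lies right of it, as for TCF7 (34.5 against 21.2 CPM).

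Kinases that carry a cysteine at the same place as BTK can also bind ibrutinib, and 11 such kinases were listed. In JVM2, 7 of them had enough reads to test, and BMX, EGFR and ERBB4 were among those that did not. BTK itself stood at 125 CPM in the control, 113 with ironomycin, 115 with ibrutinib and 99 under the combination. The control was the highest and the library with both agents the lowest, and the ironomycin and ibrutinib libraries were nearly equal. BTK fell 1.11-fold (edgeR adjusted p = 0.0278), and the call was lost with DESeq2 (0.338) and with library totals. BLK, a Src-family kinase of B cells, stood at 51.2 CPM in the control, 54.4 with ironomycin, 64.2 with ibrutinib and 74.9 under the combination. The groups did not overlap, and BLK rose 1.31-fold (edgeR adjusted p = 2.99e-07, DESeq2 adjusted p = 0.00156). TEC, a kinase of the BTK family, fell 1.29-fold (edgeR adjusted p = 0.000783) but unequally, by -0.62 on the log2 scale without ironomycin and by -0.14 with it, and DESeq2 did not call it (0.164). JAK3, ERBB2, MAP2K7 and TXK were not called, and TXK had 14 to 32 reads per library.

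Among 36 tested genes of proximal B-cell receptor signaling, 5 were called higher and 8 lower, with a median log2 change of -0.06. These calls are 36.1% of the list, against 13.6% of all tested genes. Here and below, the share of all tested genes takes in genes of low level. Their SE is larger (0.25 for CD3E, against 0.04 for PTPN6), so they are harder to call. Lists were not matched for level, so a share above 13.6% is a description only. The median over all tested genes was 0.00. PIK3AP1, which encodes the adaptor BCAP that links the receptor to PI3-kinase, stood at 113 CPM in the control, 82.3 with ironomycin, 79.7 with ibrutinib and 64.0 under the combination. Both pairs fell, and the ironomycin library was only slightly above the ibrutinib library. The fall was 1.35-fold (edgeR adjusted p = 1.03e-08, DESeq2 adjusted p = 2.69e-05). The PI3-kinase subunit genes PIK3CD and PIK3R1 rose 1.17-fold and 1.25-fold (edgeR adjusted p = 0.000208 and 4.72e-06), and both were also called by DESeq2. CD22, an inhibitory receptor, stood at 316 CPM in the control, 338 after ironomycin, 292 after ibrutinib and 336 after the combination and was not called (edgeR adjusted p = 0.405). The light-chain segment gene IGLV1-47 had 0 reads in all 4 libraries, which allows up to 3 reads in each at this depth, and IGLV1-44 had 1 read in 1 of them.

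The immediate early transcription factors held 10 called falls and 1 called rise among 27 tested members, with a median log2 change of -0.14 and 20 members below 0. Calls were 40.7% of this list and 13.6% of all tested genes. Besides EGR1 and EGR2, the list's named falls were EGR3, NR4A1, NAB2 and BTG2. EGR3 stood at 6.37 CPM in the control, 11.3 with ironomycin, 3.65 with ibrutinib and 5.72 under the combination, and it fell 1.88-fold (edgeR adjusted p = 4.8e-08). NR4A1, an orphan nuclear receptor induced by antigen receptors, stood at 9.66, 9.77, 4.60 and 6.77 CPM in the same order and fell 1.71-fold (edgeR adjusted p = 1.19e-06). In both genes the fall was seen in each pair, and the pairs differed in size for NR4A1 (-1.06 without and -0.53 with ironomycin on the log2 scale).

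NAB2, which encodes a corepressor that EGR proteins induce and bind, stood at 44.4 CPM in the control, 40.5 with ironomycin, 29.6 with ibrutinib and 26.7 under the combination. With and without ibrutinib the values stayed apart, and each pair gave nearly the same log2 ratio, -0.58 and -0.60. NAB2 fell 1.51-fold, with an adjusted p of 1.83e-10 in edgeR, 9.33e-06 in DESeq2 and 0.0464 with all 12 libraries. BTG2, an antiproliferative gene of the same list, fell 1.36-fold (edgeR adjusted p = 1.35e-09, DESeq2 adjusted p = 1.05e-06). The members EGR4, FOS and KLF4 had too few reads to test. Motif GCGNGGGCG, the EGR binding site, was present on either strand in 3 of the 7 called falls with a promoter in the table (BTG2, EGR1 and NAB2). It was in 6 of the 20 tested members with a promoter and in 8.41% of all promoters. Whether the motif went with the falls was not tested.

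The ERK feedback list, phosphatases and inhibitors that ERK induces to restrain itself, held 6 called falls and 1 called rise among 18 tested members (median log2 change -0.15), and 0 of the 7 were called with the spread of all 12 libraries. The 7 calls are 38.9% of the list, against 13.6% of all tested genes. DUSP2 stood at 145 CPM in the control, 165 with ironomycin, 106 with ibrutinib and 117 under the combination. No library with ibrutinib reached those without it, and DUSP2 fell 1.38-fold (edgeR adjusted p = 1.17e-10, DESeq2 adjusted p = 2.79e-08). DUSP4 fell 1.23-fold (edgeR adjusted p = 4.01e-06, DESeq2 adjusted p = 0.00113), from 150 and 187 CPM to 120 and 154 CPM. SPRY1, SPRY4 and MAFF fell by 1.46 to 1.58-fold at levels under 4 CPM, and ETV4 fell 1.2-fold. None of these 4 was called by DESeq2. DUSP6 had too few reads to test. Of 17 tested NFAT and calcium targets, 7 were lower and 1 higher, and EGR2, EGR3 and NR4A1 are members of this list as well as of the immediate early list. Calls made up 47.1% of the NFAT list, against the same 13.6% of all tested genes. RGS2, a regulator of G-protein signaling, fell 2.04-fold (edgeR adjusted p = 9.38e-07), from 6.39 and 3.99 CPM to 2.76 and 2.28 CPM.

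Inhibitory receptors, phosphatases and adaptors held 12 called falls and 0 called rises among 26 tested members. That is 46.2% of the list, against 13.6% of all tested genes called either way. The median log2 change was -0.24 in the fit and -0.24 in each pair, and 21 members lay below 0. PTPN6, which encodes SHP-1, was the most abundant tested member. It stood at 698 CPM in the control, 520 with ironomycin, 454 with ibrutinib and 369 under the combination. Both libraries with ibrutinib lay under both without it. PTPN6 fell 1.47-fold (log2 change -0.56, SE 0.04, edgeR adjusted p = 3.22e-14, DESeq2 adjusted p = 1.49e-16), but it was not called with the spread of all 12 libraries (adjusted p = 0.157). CD72, an inhibitory receptor that recruits SHP-1, fell 1.69-fold (edgeR adjusted p = 0.000558, all 12 libraries 0.046), from 4.07 and 3.76 CPM to 2.55 and 2.08 CPM. STAP1, an adaptor gene, had 147, 50, 33 and 26 reads in the control, ironomycin, ibrutinib and combined libraries. Its fall of 3.30-fold (edgeR adjusted p = 2.17e-07) came more from the pair without ironomycin (-2.12 on the log2 scale) than from the pair with it (-0.91). PDCD1, the gene of the inhibitory receptor PD-1, fell 1.56-fold (edgeR adjusted p = 0.000455) and LILRB4 fell 1.89-fold (0.000791), both at levels under 7 CPM. DESeq2 without its default filter did not call CD72, PDCD1 or LILRB4 (adjusted p = 0.345, 0.272 and 0.39). The members FCRL1, FCRL2, FCRL3 and FCRL4 did not have enough reads to test.

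NF-κB targets moved the other way. Of 41 tested members, 23 were called higher and 1 lower, the median log2 change was 0.14, and 38 members lay above 0. Calls made up 58.5% of the list and 13.6% of all tested genes. The 23 called rises held inhibitors of NF-κB (NFKBIA, NFKBIE, NFKBID), its subunits (NFKB1, NFKB2, RELB), survival factors (BIRC3, TRAF1, CFLAR) and surface proteins (CD40, CD80, ICAM1, CD44), among others. The 1 called fall was TNFSF9. DESeq2 called 8 of the 23, and 0 were called with the spread of all 12 libraries.

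TRAF1, a signaling adaptor that NF-κB induces, stood at 229 CPM in the control, 269 with ironomycin, 323 with ibrutinib and 337 under the combination. The groups did not overlap, and the rise was 1.33-fold (log2 change 0.41, SE 0.05, edgeR adjusted p = 1.52e-09, DESeq2 adjusted p = 9.05e-07). BIRC3, the gene of the apoptosis inhibitor cIAP2, stood at 59.6, 67.6, 80.4 and 91.2 CPM in the same order and rose 1.35-fold (edgeR adjusted p = 1.16e-08, DESeq2 adjusted p = 5.16e-05). Its 2 pairs gave the same log2 ratio of 0.43. NFKBIA, the gene of the inhibitor IκBα, rose 1.32-fold (edgeR adjusted p = 1.9e-08), by 0.55 without and 0.26 with ironomycin on the log2 scale, and DESeq2 did not call it (0.127). RELB, CFLAR and TNFAIP2 rose 1.27, 1.27 and 1.26-fold (edgeR adjusted p = 1.04e-05, 4.75e-07 and 3.03e-06), and DESeq2 called all 3.

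The stretches before 2 of these genes carry matches to the NF-κB consensus, shown in capitals, and are given because the list moved together. Both come from RefSeq in build GRCh38.p14.
NFKBIA, chr14:35404750-35404899, minus strand: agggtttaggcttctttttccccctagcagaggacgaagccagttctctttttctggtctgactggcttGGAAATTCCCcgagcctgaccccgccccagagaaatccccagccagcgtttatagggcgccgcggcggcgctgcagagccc
BIRC3, chr11:102317234-102317433, plus strand: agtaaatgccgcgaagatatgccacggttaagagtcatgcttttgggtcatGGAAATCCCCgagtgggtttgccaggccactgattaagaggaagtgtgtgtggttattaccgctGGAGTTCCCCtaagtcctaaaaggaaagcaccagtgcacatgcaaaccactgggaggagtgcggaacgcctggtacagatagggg
The NFKBIA match begins 81 bases before the start and the BIRC3 matches 199 and 135 bases before it, and the BIRC3 stretch ends 51 bases before the start. The consensus was found on either strand in 10 of the 20 called rises with a promoter in the table, in 22 of the 38 tested members with one, and in 9.96% of all 35116 promoters. The list was written from known targets, so a high share in it is built in.

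**Figure D3:**
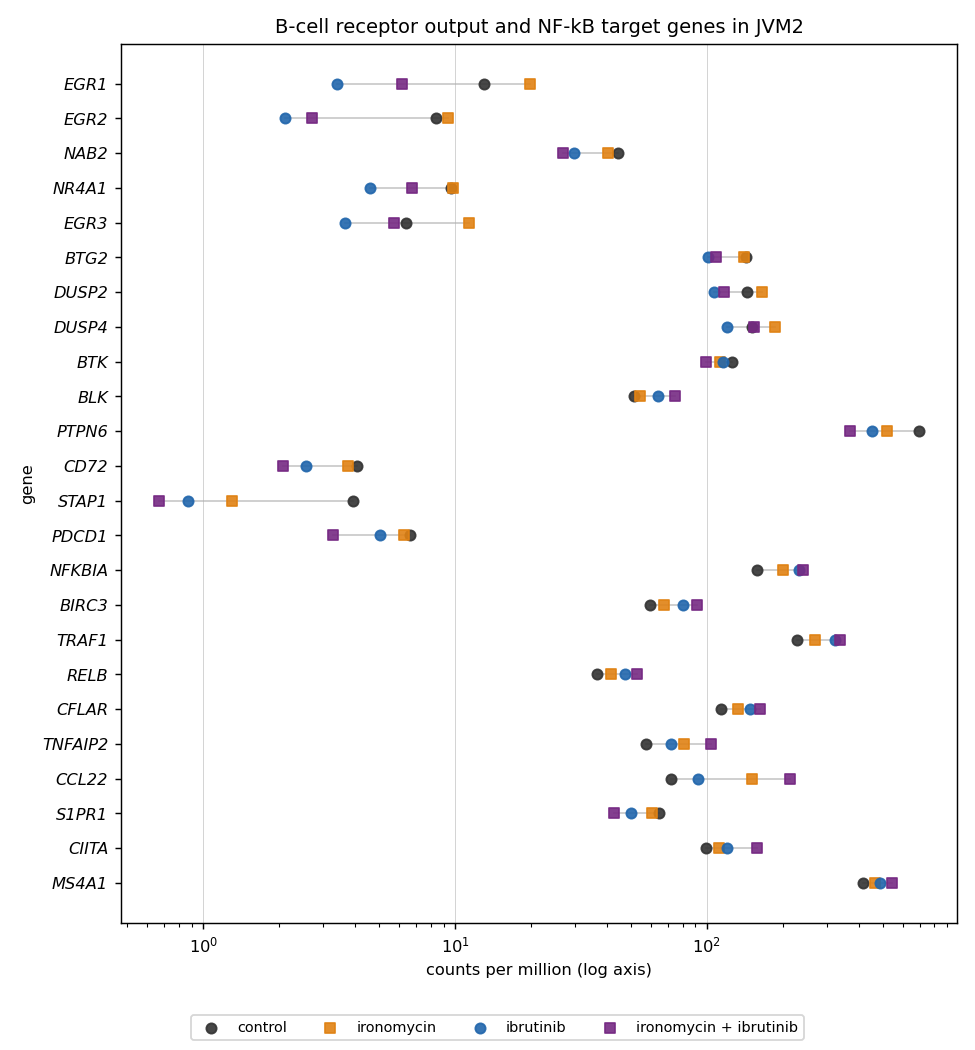
CPM (log axis) of named genes of B-cell receptor signaling, immediate early, ERK feedback, inhibitory, NF-κB and homing lists and of CIITA and MS4A1, 1 row per gene and 1 point per JVM2 library; circles are libraries without ironomycin, squares libraries with it. In EGR1 to DUSP4 each ibrutinib point lies left of its pair, whereas from NFKBIA to CCL22 each lies right of it, as for TRAF1 (323 against 229 CPM).

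Chemokine, homing and migration genes split. Of 30 tested members, 5 were called higher and 11 lower (median log2 change -0.08). Together this is 53.3% of the list, against 13.6% of all tested genes. CCL22, a chemokine that NF-κB induces, stood at 72.1 CPM in the control, 151 with ironomycin, 92.1 with ibrutinib and 213 under the combination. Ibrutinib was the higher of each pair, while the difference between ironomycin conditions was larger. CCL22 rose 1.35-fold (edgeR adjusted p = 2.96e-09, DESeq2 adjusted p = 5.01e-06). S1PR1, the receptor that guides egress from lymphoid tissue, fell 1.35-fold (edgeR adjusted p = 4.09e-08, DESeq2 adjusted p = 0.00045), from 64.5 and 60.7 CPM to 50.0 and 42.7 CPM. CD69, an activation marker that holds S1PR1 inside the cell, fell 1.35-fold (edgeR adjusted p = 0.000541), and DESeq2 did not call it (0.177). ITGAX and P2RX1 fell 2.49-fold and 2.12-fold at levels at or under 2.2 CPM, and DESeq2 without its default filter called neither (adjusted p = 0.172 and 0.683). The symbols CCL3 and CCL4 could not be matched with the name tables used here. These chemokines may still be among the rows that carry an identifier alone, so their level is not described. Among identifiers with no symbol in the tables used, ENSG00000129277 fell 3.48-fold (edgeR adjusted p = 4.28e-24, DESeq2 adjusted p = 0.000473, all 12 libraries 0.0366), from 68.8 and 91.1 CPM to 14.4 and 33.3 CPM. ENSG00000205020 fell 2.37-fold (edgeR adjusted p = 1.65e-18, DESeq2 adjusted p = 1.64e-16), from 25.4 and 32.2 CPM to 10.5 and 13.9 CPM. These 2 identifiers were picked after their values were seen, as was XCL1, a lymphocyte chemokine gene of low level that had the largest fall in its weaker pair of all called genes (log2 ratios -3.59 without and -3.74 with ironomycin, mean level -0.48 log2 CPM). At so low a level XCL1 passed the read filter through the libraries without ibrutinib, so its rank is given as a description only. XCL1 has a near-identical copy, XCL2, so its reads are uncertain.

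B-cell and plasma-cell identity genes held 8 called rises and 9 called falls among 33 tested members. Calls were 51.5% of this list and 13.6% of all tested genes. MS4A1, the gene of CD20, stood at 416 CPM in the control, 466 with ironomycin, 488 with ibrutinib and 545 under the combination. The groups did not overlap, and MS4A1 rose 1.17-fold (edgeR adjusted p = 0.000125, DESeq2 adjusted p = 0.00666). The Toll-like receptor gene TLR10 rose 1.27-fold (edgeR adjusted p = 2.41e-05, DESeq2 adjusted p = 0.0346), and TLR1 and TLR6 rose 1.31 and 1.26-fold (edgeR adjusted p = 0.00759 and 0.000589), of which DESeq2 called neither. IRF4, a transcription factor of activated B cells and plasma cells, rose 1.14-fold (edgeR adjusted p = 0.00223), whereas the plasma-cell genes SDC1 and JCHAIN fell 1.21 and 1.22-fold (7.34e-05 and 5.96e-05). CIITA, which switches on MHC class II genes, rose 1.31-fold (edgeR adjusted p = 5.18e-08, DESeq2 adjusted p = 0.000166), from 99 and 111 CPM to 121 and 157 CPM. In the antigen presentation list as a whole, 2 of 27 tested members were higher and 5 lower (25.9% called). HLA-E fell 1.2-fold (edgeR adjusted p = 1.12e-05, DESeq2 adjusted p = 0.000216). Reads can be shared between HLA genes, so the value of HLA-E is less certain.

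Glycolysis and hypoxia targets held 20 called falls and 0 called rises among 36 tested members, with a median log2 change of -0.22. These falls are 55.6% of the list, against 13.6% of all tested genes called either way. DESeq2 called 10 of the 20: BNIP3, PDK1, P4HA1, SLC2A3, ALDOA, GAPDH, PGK1, PGAM1, LDHA and SLC16A3. With the spread of all 12 libraries 0 of the 20 were called. Reads of GAPDH, PGAM1 and LDHA can be shared with their pseudogenes. SLC2A3, a glucose transporter gene, stood at 38.3 CPM in the control, 32.6 with ironomycin, 22.1 with ibrutinib and 24.0 under the combination. Both libraries with ibrutinib were the lower, and SLC2A3 fell 1.54-fold (edgeR adjusted p = 2.04e-09, DESeq2 adjusted p = 0.000136). LDHA, the gene of lactate dehydrogenase A, stood at 1388 CPM in the control, 1205 with ironomycin, 1130 with ibrutinib and 920.5 under the combination and fell 1.27-fold (edgeR adjusted p = 3.97e-08, DESeq2 adjusted p = 7.08e-07). PFKFB4, a regulator of glycolysis, fell 1.70-fold (edgeR adjusted p = 1.03e-08), by -1.21 without and -0.43 with ironomycin, and DESeq2 did not call it (0.307). The motif ACGTG or GCGTG, the core of the hypoxia response element, was present in 16 of the 17 called falls with a promoter in the table, in 27 of the 32 tested members with one, and in 43.2% of all promoters. This list too was written from known targets, so a high share in it is built in.

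ATF4 targets and genes of amino acid supply held 21 called falls and 0 called rises among 38 tested members, and 35 lay below 0. The falls are 55.3% of the list, against 13.6% of all tested genes called either way. The median log2 ratio was -0.28 in the pair without ironomycin and -0.08 in the pair with it. DDIT4, a stress-induced inhibitor of mTORC1, stood at 133 CPM in the control, 107 with ironomycin, 48.9 with ibrutinib and 90.2 under the combination. The ibrutinib library stood well under the other 3, and DDIT4 fell with a log2 ratio of -1.44 without and -0.25 with ironomycin (edgeR adjusted p = 7.58e-09, DESeq2 adjusted p = 0.561). ASNS (asparagine synthetase), WARS1 (a tRNA synthetase), CTH (cystathionine gamma-lyase) and PSAT1 (serine synthesis) fell 1.29 to 1.47-fold, each with the larger ratio in the pair without ironomycin. DESeq2 called 1 of the 21 falls, SHMT2, and 0 were called with the spread of all 12 libraries. Whether the ibrutinib effect itself depended on ironomycin could not be tested in JVM2, since that difference is the only spread its 4 libraries give.

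Cholesterol and fatty acid synthesis genes held 15 called falls and 0 called rises among 34 tested members (median log2 change -0.13). That makes 44.1% of the list, against 13.6% of all tested genes called either way. DESeq2 called 4 of the 15, and 0 were called with the spread of all 12 libraries. SCD, the gene of stearoyl-CoA desaturase, stood at 542 CPM in the control, 457 with ironomycin, 415 with ibrutinib and 398 under the combination. Both libraries with ibrutinib lay under the others, and SCD fell 1.23-fold (edgeR adjusted p = 3.22e-06, DESeq2 adjusted p = 0.000629). SREBF1, the gene of a transcription factor of lipid synthesis, and DHCR7, the last enzyme of cholesterol synthesis, fell 1.24 and 1.23-fold (edgeR adjusted p = 3.38e-06 and 7.58e-06), and DESeq2 called both. SREBF1 was lower with ironomycin by a larger factor, at 92.1 CPM against 259 CPM in the control. The sterol regulatory motif TCACNCCAC was in 1 of the 12 called falls with a promoter, SREBF2, and in 0.883% of all promoters. Of 32 tested unfolded protein response genes, 9 were called lower and 1 higher (DERL3), or 31.2% of that list. EDEM1, which removes misfolded glycoproteins, fell 1.33-fold (edgeR adjusted p = 2.48e-08), by -0.59 without and -0.24 with ironomycin on the log2 scale, and DESeq2 did not call it (0.193). SEC24D, a coat protein gene of vesicles, fell 1.24-fold (edgeR adjusted p = 3.09e-06, DESeq2 adjusted p = 0.00126).

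**Figure D4:**
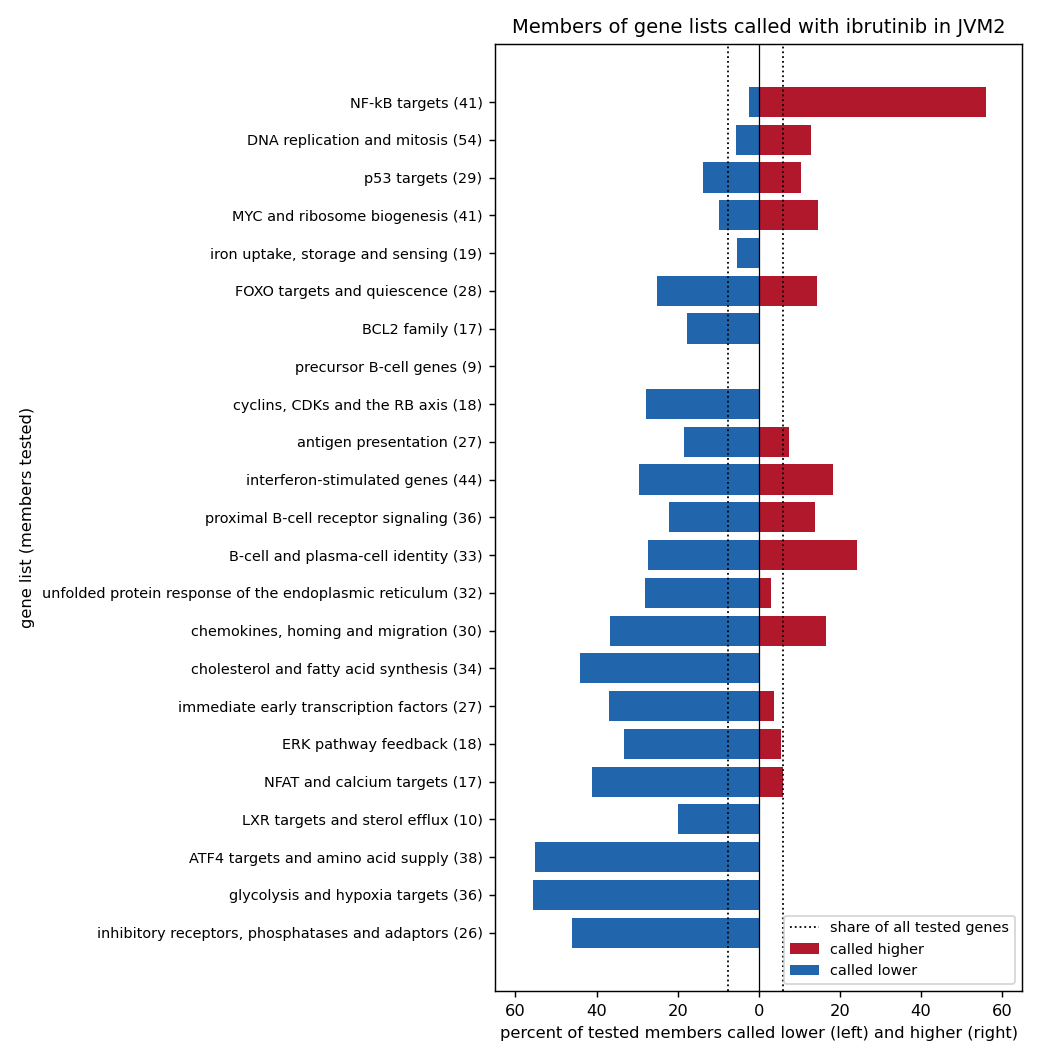
Percent of tested members of each gene list called lower (left, blue) and higher (right, red) with ibrutinib in JVM2, ordered by median log2 change, with the number of tested members in brackets and dotted lines at the shares of all tested genes (7.6% and 6.04%). NF-κB targets extend to the right (23 of 41). The lists of glycolysis and hypoxia targets (20 of 36), of ATF4 targets (21 of 38) and of inhibitory receptors, phosphatases and adaptors (12 of 26) extend to the left. Lists with fewer than 9 tested members are not drawn.

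In the cell cycle lists most members were not called, as in the immediate early and ERK feedback lists. The share called either way was still above the 13.6% of all tested genes. Of 54 tested replication and mitosis genes, 7 were called higher and 3 lower (18.5% of the list), whereas over all tested genes 6.04% were called higher and 7.6% lower. DESeq2 called 0 of these 10, and the median log2 change of the list was 0.05. MYC and ribosome biogenesis genes gave 6 rises and 4 falls among 41 (24.4%). The largest called change in that list besides LDHA was the fall of ODC1, the rate-limiting enzyme of polyamine synthesis and a MYC target, by 1.26-fold (edgeR adjusted p = 1.05e-07, DESeq2 adjusted p = 4.01e-06). Among 18 cyclin, CDK and RB-axis genes, 5 were called lower and 0 higher, all 5 being CDK6 or CDK inhibitors (CDKN1A, CDKN1B, CDKN2A and CDKN2D). These 5 are 27.8% of the list, against 7.6% of all tested genes called lower, and DESeq2 called CDKN1A alone. CDKN1A, the gene of p21, fell 1.19-fold (edgeR adjusted p = 3.16e-05, DESeq2 adjusted p = 0.00146). Among p53 targets, 3 of 29 were higher and 4 lower, and 3 of 17 BCL2-family genes were lower (BAK1, BCL2L11 and PMAIP1, none called by DESeq2). Counts this small are not read as results about these lists.

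Interferon-stimulated genes were called in both directions, 8 higher and 13 lower among 44. Calls were 47.7% of this list and 13.6% of all tested genes. IFITM2 fell 1.32-fold (edgeR adjusted p = 2.11e-08, DESeq2 adjusted p = 2.13e-05) and PARP9 fell 1.27-fold (1.74e-06 and 0.00169), whereas GBP4 rose 1.39-fold (edgeR adjusted p = 7.54e-08, DESeq2 adjusted p = 0.335). IFITM genes share sequence, so reads may be split between them. FOXO targets gave 4 rises and 7 falls among 28 (39.3% of the list). KLF2 was 1.35-fold higher (edgeR adjusted p = 0.000673) in unequal pairs (0.68 and 0.12) and not called by DESeq2 (0.259). Precursor B-cell genes gave 0 calls among 9 by edgeR and 0 by DESeq2. The list of LXR targets and sterol efflux genes gave 2 falls among 10 (20% of the list), NR1H2 and ABCG1. DESeq2 called neither (adjusted p = 0.17 and 0.0559), and neither was called with the spread of all 12 libraries. ABCG1, a sterol exporter, stood at 38.6 and 27.9 CPM without ironomycin and at 4.59 and 3.31 CPM with it. In the iron list, FTL, the ferritin light chain gene, was the only call among 19 and fell 1.29-fold (edgeR adjusted p = 5.21e-08, DESeq2 adjusted p = 1.33e-05). Reads of FTL can be shared with pseudogenes. TFRC, the transferrin receptor gene, stood at 412 and 455 CPM without ironomycin and at 841 and 883 CPM with it, and was not called for ibrutinib (edgeR adjusted p = 0.0925).

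A call asks for the same direction in both pairs, so sizes over the called genes are given as a description only. The median size of a called gene's log2 ratio was 0.26 without ironomycin and 0.24 with it. The ratio was the larger of the 2 in the pair without ironomycin for 1146 called genes and in the pair with it for 837. Among falls this count was 688 of 1105, and among rises 458 of 878.

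To ask whether these changes differed from those in the other lines, the JVM2 effect was set against the mean of the JEKO1 and MAVER1 effects in a fit of all 12 libraries. JEKO1 had received 0.5 µM ibrutinib with 0 or 50 nM ironomycin and MAVER1 6.25 µM ibrutinib with 0 or 250 nM ironomycin, so line and dose cannot be told apart. Of 12482 genes with enough reads in all 3 lines, 61 were called (0.489%). The effect was higher in JVM2 for 44 (0.353%) and lower for 17 (0.136%). DESeq2 called 184. Leaving out any 1 of the 4 JVM2 libraries (control, ironomycin, ibrutinib or combined) left 0 calls. Against JEKO1 alone 170 genes were called and against MAVER1 alone 5, and in the same fit ibrutinib itself gave 15 calls in JVM2, 720 in JEKO1 and 50 in MAVER1. Of the 61, 35 were also among the 1983.

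CD86, a costimulatory ligand for T cells, TLR10 and SYNPO had the same, lowest adjusted p-value. CD86 stood at 188, 183, 205 and 199 CPM in the JVM2 control, ironomycin, ibrutinib and combined libraries and was not called there (edgeR adjusted p = 0.0628). Its log2 change with ibrutinib was -1.61 in JEKO1 and -1.58 in MAVER1, a difference of 1.72 (edgeR adjusted p = 0.00444). TLR10, called higher in JVM2, had log2 effects of -1.22 in JEKO1 and -1.16 in MAVER1 (difference 1.53, adjusted p = 0.00444). SYNPO, the gene of the actin-associated protein synaptopodin, rose 1.34-fold in JVM2 (edgeR adjusted p = 5.45e-09), from 80.6 and 88.0 CPM to 108 and 119 CPM, with log2 effects of -0.86 and -0.66 in JEKO1 and MAVER1 (difference 1.19, adjusted p = 0.00444).

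HIVEP3 (difference 1.81, edgeR adjusted p = 0.00457), the pseudogene NAPSB (1.04, 0.00902) and DTX4 (0.93, 0.00893) were the next on the higher side. HIVEP3 and NAPSB were not called in JVM2 (edgeR adjusted p = 0.114 and 0.0925). The log2 effect of HIVEP3 was -2.22 in JEKO1 and -1.03 in MAVER1, and that of NAPSB was -0.58 and -1.22. DTX4, which rose in JVM2, had a log2 effect of -0.15 in each of the other lines. On the lower side, SNTB1 (difference -1.07, edgeR adjusted p = 0.00952), a syntrophin gene, fell 1.38-fold in JVM2 and had log2 effects of 0.93 in JEKO1 and 0.28 in MAVER1. PITPNM2 had 71, 41, 16 and 15 reads in the control, ironomycin, ibrutinib and combined JVM2 libraries and fell 3.63-fold there. It passed the JVM2 read filter only through the libraries without ibrutinib, so its fall is given as a description only. DESeq2 without its default filter did not call the fall in JVM2 (adjusted p = 0.108). In JEKO1 and MAVER1 the log2 effects of PITPNM2 were -0.02 and 0.05 (difference -1.87, edgeR adjusted p = 0.0246). CD27, a TNF-receptor family member of memory B cells, had log2 effects of -0.22 in JVM2, 1.24 in JEKO1 and 1.0 in MAVER1 (difference -1.35, adjusted p = 0.0277). CEACAM21 fell 3.55-fold in JVM2 and had log2 effects of -0.63 and -0.44 in the other lines (difference -1.29, adjusted p = 0.0308), and P4HA2 and SPNS3 had the same adjusted p. Neither P4HA2 nor SPNS3 was called in JVM2 (edgeR adjusted p = 0.19 and 0.215). Their log2 effects were 1.69 and 1.92 in JEKO1 and 0.39 and 0.42 in MAVER1.

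**Figure D5:**
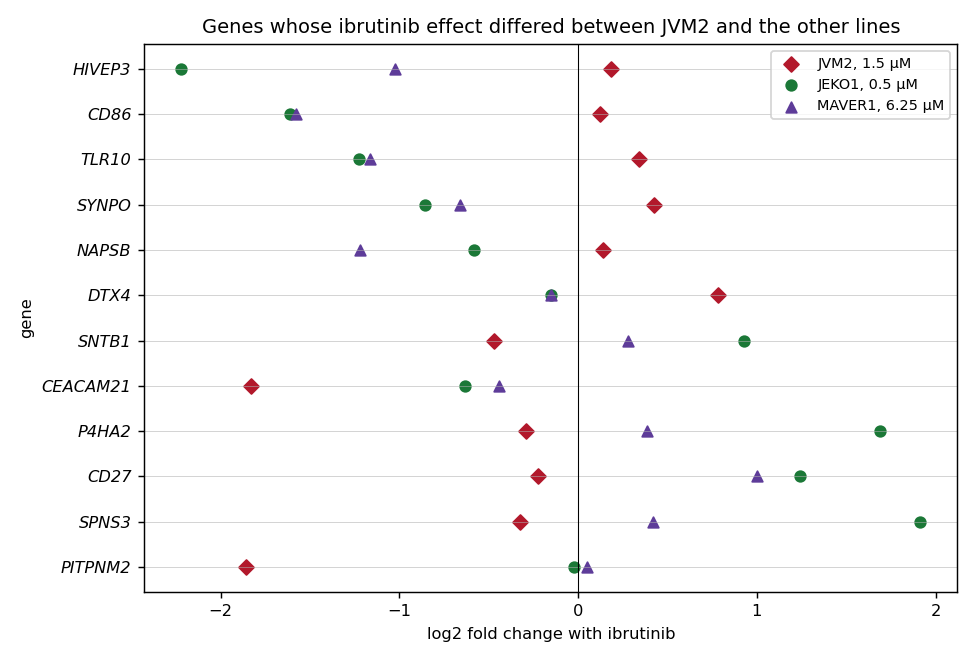
Log2 fold change with ibrutinib of the 12 genes named for the difference between lines, from the fit of all 12 libraries; diamonds are JVM2 (1.5 µM), circles JEKO1 (0.5 µM) and triangles MAVER1 (6.25 µM). For CD86 and TLR10 the JVM2 point lies above 0 and the other 2 points lie under -1, and for PITPNM2 the JVM2 point alone lies far below 0.

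Several of the falls described above were not called in this test. The log2 change of EGR2 was -2.92 in JEKO1 and -1.02 in MAVER1 (difference 0.08, edgeR adjusted p = 0.914), that of FCRL5 was -2.05 and -0.81 (difference -0.40, adjusted p = 0.315), and that of SH2D2A was -2.13 and -1.08 (difference 0.63, adjusted p = 0.0501). EGR1 did not have enough reads in all 3 lines for this test. PTPN6 fell less in JVM2 than in the others, where its log2 change was -2.47 in JEKO1 and -1.13 in MAVER1 (difference 1.25, adjusted p = 0.0246). PDCD1 had log2 effects of -2.16 and -1.67 against a fall of -0.64 in JVM2 (difference 1.26, adjusted p = 0.0491). BIRC3 had log2 effects of -0.77 in JEKO1 and 0.17 in MAVER1. None of the 6 NF-κB targets given with values above passed edgeR's test of the difference (adjusted p from 0.206 to 0.567). That test was against the mean of JEKO1 and MAVER1. In JEKO1 all 6 had log2 effects below 0, from -0.07 for CFLAR to -1.80 for TNFAIP2. Of these falls, those of NFKBIA (-0.83, edgeR adjusted p = 0.0432) and TNFAIP2 (0.0368) were called. In MAVER1 the effects ranged from -0.25 for RELB to 1.11 for TNFAIP2, and none was called. Of the 1983 JVM2 calls, 1709 were tested in this fit, and 890 of these had the same sign in both other lines. The like share over all tested genes was not computed, so agreement between lines cannot be read from this count.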

How the data were processed

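The authors deposited 1 table of raw read counts per Ensembl gene (63677 genes) for 12 libraries, without normalization. Libraries were made from polyadenylated RNA with a stranded kit and sequenced in paired-end mode. The submitters' processing notes name STAR, DESeq2 and GRCh37; the counting tool and its strand setting are not given in the sources used here, so reads of overlapping genes may be shared. Unused columns numbered 0.

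Counts were tested with edgeR 4.0.16 (R 4.3.3; TMM, quasi-likelihood F-test, Benjamini-Hochberg adjustment over all genes tested). The 4 JVM2 libraries (38120929 to 38438166 reads) were fitted with ironomycin and ibrutinib as terms, which leaves 1 residual degree of freedom, moderated over genes (prior degrees of freedom 50.7). Genes had 20 or more reads in at least 2 libraries. A call needed an adjusted p-value under 0.05 and ratios (CPM, prior count 2) of the same sign in both pairs. SE is the log2 change over the root of F. The difference between lines came from all 12 libraries with line, and both agents within line, as terms (3 residual degrees of freedom).

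Alternatives were DESeq2 1.42.0, with and without independent filtering, limma 3.58.1 (voom), other scalings, filters and sets of libraries, and the omission of single libraries; limma voom and DESeq2 without independent filtering were added after seeing the data. The 29 gene lists were matched by symbol. The members, lists and rule for named genes were chosen with earlier results of these data known. Named were the 12 rises and 12 falls with the largest smaller pair ratio (mean of at least 1 log2 CPM), the kinases ibrutinib binds, up to 6 called members per list, genes the study names, and 6 genes each way for the difference between lines. List members outside this rule are named only as part of a count, and a few genes are not reported here.

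Tests were tried on simulated counts, drawn from the fitted models with the spread that edgeR had estimated from the same libraries. A low number of false calls is then built in. The simulation cannot show whether that spread is right for the real calls. For JVM2 (14532 genes) edgeR found 87 of 100 changes of 1 log2 unit and 64 of 100 changes of 0.5, and called 7 unchanged genes; DESeq2 found 71 and 49, and called 0. For the lines (12482 genes) edgeR found 90 and 51, and called 13. Promoters (35116 entries, 250 bases before the start) came from RefSeq, GRCh38.p14. Plots were drawn with Python 3.11.15 and matplotlib 3.10.9.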

Additional observations from a re-analysis of the deposited data

Results flagged for a closer look

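The ibrutinib effect differed between JVM2 and the mean of JEKO1 and MAVER1 for 61 of 12482 genes by edgeR's test of the difference. Among genes named in the report, the differences in log2 effect above 0 were 1.81 for HIVEP3, 1.72 for CD86, 1.53 for TLR10, 1.45 for SFN, 1.26 for PDCD1, 1.25 for PTPN6, 1.19 for SYNPO, 1.11 for OXTR, 1.04 for NAPSB, 0.93 for DTX4 and 0.77 for VAV2. Those below 0 were -1.87 for PITPNM2, -1.49 for SPNS3, -1.35 for CD27, -1.33 for P4HA2, -1.29 for CEACAM21 and -1.07 for SNTB1. Ibrutinib calls in JVM2 itself were lacking for HIVEP3, CD86, NAPSB, SPNS3 and P4HA2. PITPNM2 passed the JVM2 read filter only through the libraries without ibrutinib. OXTR and SFN rose in JVM2. In JEKO1 and MAVER1 the log2 changes of OXTR were -0.05 and -0.66, and neither was called (edgeR adjusted p = 0.849 and 0.322). Those of SFN were -0.99 and -0.60, of which only the change in JEKO1 was called (edgeR adjusted p = 0.0179 and 0.314). VAV2, a guanine nucleotide exchange factor of antigen receptor signaling, rose 1.17-fold in JVM2 and changed by -0.90 in JEKO1 and -0.19 in MAVER1. Lines and ibrutinib doses cannot be told apart in these differences.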

How the results depend on the processing

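The number of genes called with ibrutinib (1983) was 311 with DESeq2, 283 with DESeq2 without independent filtering, 28 with all 12 libraries, 67 with a log2 change of at least 1, and 0 without the ironomycin term (508 at an unadjusted p under 0.05) or without a filter on low counts (2879 at an unadjusted p under 0.05). It was 1909 with limma voom. Without each JVM2 library in turn (control, ironomycin, ibrutinib, combined), fitted with all 12 libraries, it ranged from 0 to 1; the lone library is then assumed to vary like the others. The difference between lines (61) was 96 with filterByExpr, 15 without a filter, 184 with DESeq2, 174 without its independent filtering, 170 against JEKO1 alone and 5 against MAVER1 alone, and 0 without any 1 JVM2 library. The cause of these shifts was not tested, beyond the libraries and genes each setting holds. Of the 1983, 357 had no DESeq2 adjusted p-value.

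Signs reversed only for genes that were not called. Over the omissions of single libraries, JAK3 ranged from -0.032 to 0.22, S100A9 from -0.090 to 0.064, TCF3 from -0.12 to 0.071 and TXK from -0.47 to 0.28. S100A9 was 0.013 with library totals. TXK was -0.000262 with DESeq2 size factors, -0.00573 with filterByExpr, -0.00198 without a filter, -0.075 with DESeq2 without independent filtering, -0.020 with limma voom and -0.00778 with all 12 libraries. Pairing by ironomycin treatment is part of the fit, and leaving it out gave the 0 calls above. No paired analysis was possible by replicate number because no condition has more than 1 library.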
